A study of Mus musculus with 8 samples.

Results

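The 10 genes described here are immediate early genes and subunits of the transcription factor AP-1: *Fos*, *Fosb*, *Fosl2*, *Jun*, *Junb*, *Jund*, *Egr1*, *Atf3*, *Ier2* and *Dusp1*. They were chosen by name, with earlier results of these data known. All 10 were matched by symbol to 1 of 31053 Ensembl gene identifiers, and all 10 are among the 12889 genes that passed the filter on low counts. Their transcripts were counted in retinal pigment epithelium (RPE) isolated at postnatal day 29 from 4 *Bbs8*+/+ and 4 *Bbs8*-/- libraries. Both genotypes carry the strain label C57/Bl6, were littermates and received no treatment. The controls are wild type, the mutants carry a knockout of *Bbs8*, which encodes a subunit of the BBSome that carries cargo to and from primary cilia, and the labels name no Cre line or transgene. Expression is given as CPM, the counts of a gene relative to the library total after scaling by edgeR's TMM factors, and a difference between genotypes as a log2 fold change of *Bbs8*-/- over *Bbs8*+/+ with the adjusted p of edgeR's quasi-likelihood test.

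Immediate early genes are transcribed within minutes of a stimulus, without new protein synthesis, when MAP kinases and other kinases activate factors already bound at their promoters, and most of their transcripts are short-lived. AP-1 is a dimer of basic leucine zipper proteins. Jun proteins pair with each other or with Fos proteins, whereas Fos proteins need a Jun partner. In the retina, *Fos* is known for its part in the death of photoreceptors after bright light. Immediate early genes are also known to respond to the dissociation of tissue. The study's methods free RPE sheets with trypsin, but their section on RNA describes homogenised eyecups without that step. The labels name isolated RPE, which is followed here.

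*Fos*, *Fosb*, *Jun*, *Egr1* and *Junb* rose in *Bbs8*-/- RPE, none of the 10 genes fell, and *Fosl2*, *Jund*, *Atf3*, *Ier2* and *Dusp1* did not pass the test. Lower genes numbered 0 with edgeR's quasi-likelihood test, also at an unadjusted p under 0.05, and 0 with DESeq2. The mean level of *Fos* in *Bbs8*-/- RPE was 2.01 times that in controls, and the ratio was 1.66 for *Fosb*, 1.57 for *Jun*, 1.50 for *Egr1* and 1.26 for *Junb*. Of all tested genes, 5.46% rose at an adjusted p under 0.05 and 6.80% fell. The 5 genes that rose are also those for which all *Bbs8*-/- libraries lay above all *Bbs8*+/+ libraries, which was so for 7.42% of tested genes, with the reverse order for 8.62%. The median log2 fold change of the 10 genes was 0.36, and that of all tested genes was 0.02.

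Bulk RNA cannot tell fewer cells of a type from less RNA per cell. Summed markers of RPE lay between 39850 and 40930 CPM in *Bbs8*+/+ libraries and between 48196 and 51980 CPM in *Bbs8*-/- libraries, and *Best1*, a channel of RPE, was near the floor of 3 counts in both. That sum was carried by *Ttr*, which went from 20932 to 31748 CPM, while 3 of the 13 RPE markers rose, 3 fell, among them *Rpe65*, and the median log2 fold change was -0.02. Libraries also held RNA of other cells. All 11 lens markers, all 5 erythrocyte markers and 11 of 16 photoreceptor markers fell, while 5 of 9 markers of Müller and reactive glia rose. Another 3 photoreceptor markers rose, among them the cone opsins *Opn1sw* and *Opn1mw*, by 0.76 and 0.84 on the log2 scale. Summed photoreceptor markers fell from between 53263 and 57097 to between 22347 and 23140 CPM (p = 0.0286 by an exact, two-sided permutation of libraries, which can go no lower, and 0.0429 adjusted over 9 marker lists). RPE, lens, erythrocyte, glia and ocular surface markers gave the same p. Those of microglia, fibroblasts and endothelium overlapped between genotypes (adjusted p = 0.171, 0.0964 and 0.0964 in the same exact test). Markers of the ocular surface rose from at most 4.09 CPM to between 63.9 and 77.2 CPM, with *Krt12* at 0 throughout. The share of reads on no annotated feature also moved with genotype, from 17.0% to 18.4% in controls and from 19.8% to 20.6% in mutants, as did the number of genes with a count, from 14115 to 14496 and from 13657 to 14084. With lens, erythrocyte and photoreceptor genes left out of the TMM scaling the median of the 10 genes was 0.36, and with libraries scaled to RPE markers it was 0.33. Such scaling changes all genes of a library by the same factor and cannot show which cells a transcript came from. The part of these shifts in the values that follow was not tested.

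Every library held counts both on *Xist*, which is transcribed from the inactive X chromosome of females, and on each of the Y-linked genes *Ddx3y*, *Eif2s3y*, *Kdm5d* and *Uty*. The lowest count of *Xist* was 111 and that of *Ddx3y* was 183, so no library held RNA of 1 sex alone, although the study's methods count each animal as a replicate and the labels give the sex as not determined. *Xist* was 3.44 times as high in *Bbs8*-/- libraries, at 199.6 to 212 CPM against 41.3 to 71.1 CPM, and the sex makeup of the libraries cannot be told apart from genotype. The sources do not say that animals were pooled, and the p-values here measure the spread between libraries, which may be technical. *Bbs8*+/+ replicate 1 stood apart from the other controls. Its counts differed from theirs by a chi-square per degree of freedom of 6.07 to 7.51, against 2.87 to 3.41 among the other controls. *Ttc8*, the gene name of *Bbs8*, fell from 47.6 ± 10.3 to 4.70 ± 1.97 CPM (SD, n = 4).

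The promoters of *Fos*, *Fosb* and *Jun* are shown because each of these genes rose. That of *Dusp1*, which did not pass the test, is shown for comparison. The promoter of *Junb*, which also rose, was searched but is not shown. Promoter sequences of 8 of the 10 genes were taken from RefSeq's GRCm38.p6 table, and the 250 bases before the annotated start of transcription were searched. Those of *Egr1* and *Ier2* were not searched. The motifs searched on both strands were the CRE, TGACGTCA, which binds CREB and ATF proteins, its core TGACG, the AP-1 site TGANTCA, the site TGACATCA known from the *Jun* promoter, the EGR site GCGNGGGCG and the CArG box bound by SRF. The TATA box TATAAA was searched on the strand of the gene. The core TGACG is part of the CRE, so these overlap. Sequences run 5′ to 3′ on the strand of the gene, with every match in capitals. They span chr12:85473640-85473889 on the forward strand for *Fos* and, on the reverse strand, chr7:19310046-19310295 for *Fosb*, chr4:95052223-95052472 for *Jun* and chr17:26508473-26508722 for *Dusp1*.
Fos: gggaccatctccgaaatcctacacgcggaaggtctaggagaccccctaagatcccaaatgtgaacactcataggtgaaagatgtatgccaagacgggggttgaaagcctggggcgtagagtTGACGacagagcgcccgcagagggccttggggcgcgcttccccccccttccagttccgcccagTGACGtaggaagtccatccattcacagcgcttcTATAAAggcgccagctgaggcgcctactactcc
Fosb: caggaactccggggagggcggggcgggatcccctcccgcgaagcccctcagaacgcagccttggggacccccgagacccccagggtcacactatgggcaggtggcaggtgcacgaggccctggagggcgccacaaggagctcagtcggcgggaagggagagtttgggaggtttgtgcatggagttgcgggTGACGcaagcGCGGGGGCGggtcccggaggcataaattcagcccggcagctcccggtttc
Jun: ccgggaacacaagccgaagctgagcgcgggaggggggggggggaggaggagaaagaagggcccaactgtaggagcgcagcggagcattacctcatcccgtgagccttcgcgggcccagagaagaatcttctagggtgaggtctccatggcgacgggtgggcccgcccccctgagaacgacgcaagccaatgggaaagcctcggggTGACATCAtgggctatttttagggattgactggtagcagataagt
Dusp1: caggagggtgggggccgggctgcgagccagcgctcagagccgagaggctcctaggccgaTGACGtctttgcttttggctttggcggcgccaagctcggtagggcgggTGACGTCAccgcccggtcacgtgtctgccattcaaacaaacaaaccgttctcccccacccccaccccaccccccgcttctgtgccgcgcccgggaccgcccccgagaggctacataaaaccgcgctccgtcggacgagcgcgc

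The *Fos* window held the core TGACG at 129 to 125 and at 66 to 62 bases before the start, and a TATA box at 33 to 28 bases. The *Fosb* window held the core at 60 to 56 bases and an EGR site at 50 to 42 bases, and the *Jun* window held TGACATCA at 45 to 38 bases. The *Junb* window held the core at 106 to 102 bases and that of *Atf3* at 7 to 3 bases. An EGR site lay at 79 to 71 bases in the *Fosl2* window, and the *Jund* window held no match. *Dusp1* was the only one of the 8 genes with a whole CRE, at 143 to 136 bases, and held a further core at 191 to 187 bases. Among 32851 promoters of the same length, 17.8% held the core TGACG, 1.55% the CRE, 4.70% the EGR site, 2.93% TGACATCA and 7.59% the TATA box. No window of the 8 genes held the AP-1 site, found in 6.75% of promoters, or the CArG box, found in 1.47%. Bases further upstream were not searched, so this does not show that the genes lack such sites. The window of *Jund* lies upstream of the gene's start as given here and does not cover the bases just before it, and those of *Fosl2*, *Atf3* and *Dusp1* lie at RefSeq starts inside the longer annotated gene. These matches describe letters and were not tested as binding sites.

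**Figure D1:**
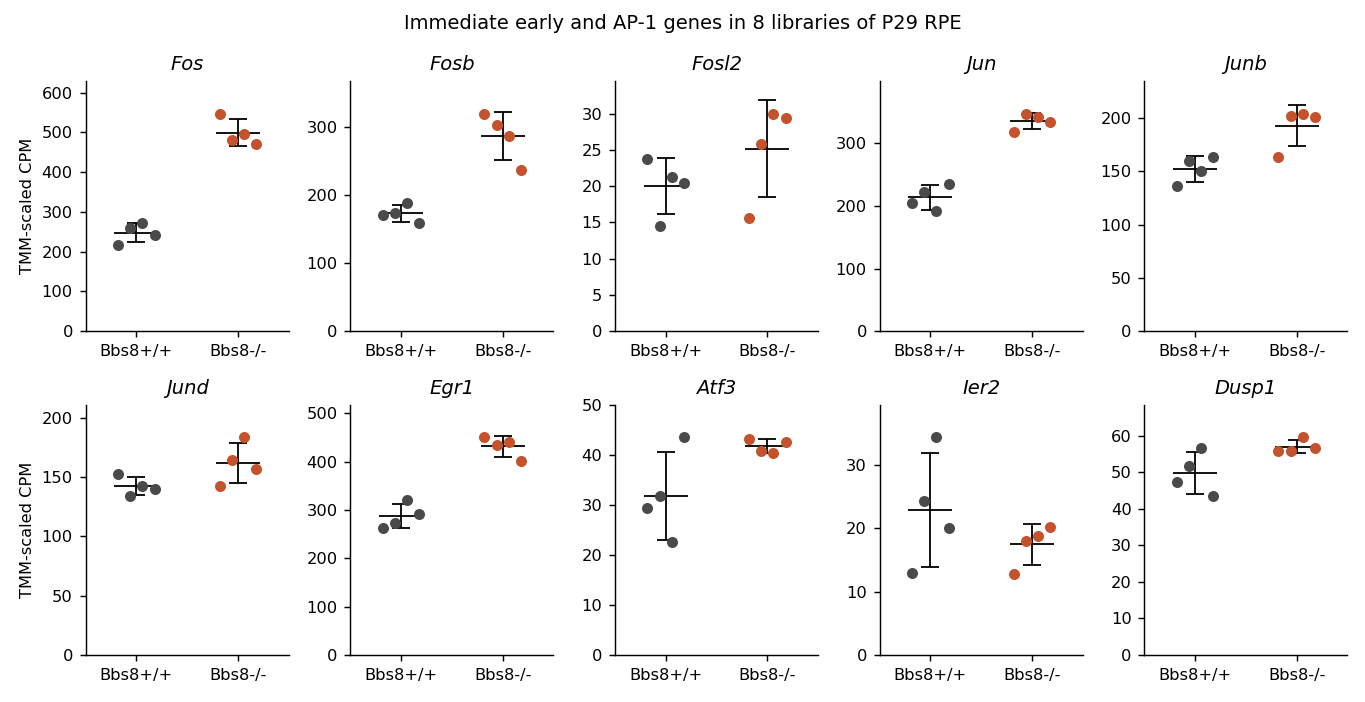
Expression of each of the 10 genes in every library, in TMM-scaled CPM on axes that start at 0, with *Bbs8*+/+ in grey and *Bbs8*-/- in orange. Black marks are the mean and bars the SD of 4 libraries. The genotypes are apart for *Fos*, *Fosb*, *Jun* and *Egr1*, almost touch for *Junb* and overlap for the other 5 genes.

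Among the Fos proteins, which lend AP-1 dimers most of their inducible activity, *Fos* (ENSMUSG00000021250, chromosome 12 from 85473890 to 85477273 of GRCm38) showed the largest rise of the 10 genes. It was at 218, 258, 273 and 242 CPM in the *Bbs8*+/+ libraries and at 547, 481, 497 and 471 CPM in the *Bbs8*-/- libraries. All 4 mutant libraries lay well above all 4 controls, with no library set off from its group. This gave a log2 fold change of 1.01, with a 95% interval from 0.83 to 1.19 and an adjusted p of 2.76e-11, and *Fos* ranked 86 by p among the tested genes. With each library left out it stayed between 0.95 and 1.05, and scaled to RPE marker genes it was 0.98.

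*Fosb* (ENSMUSG00000003545, chromosome 7 from 19302696 to 19310051) encodes the closest relative of *Fos* in this family. It was at 172, 174, 189 and 159 CPM in controls and at 320.2, 304, 287 and 238 CPM in mutants. The lowest mutant library lay above the highest control, and the mutants spread more than the controls. On the log2 scale the difference was 0.73, with a 95% interval from 0.52 to 0.94 (adjusted p = 1.18e-06). *Fosl2* (ENSMUSG00000029135), a Fos-related antigen without the strong activation domain of *Fos*, was expressed at a lower count, between 38 and 84 per library. It was at 23.7, 14.5, 21.3 and 20.4 CPM in controls and at 15.6, 25.8, 30.0 and 29.4 CPM in mutants. *Bbs8*-/- replicate 1 lay among the controls and the genotypes overlapped. Its estimate of 0.33 on the log2 scale had a 95% interval from -0.18 to 0.85 and did not pass the test (adjusted p = 0.478), so that neither no change nor a rise of the size of *Fosb* lies outside it.

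Among the Jun proteins, *Jun* (ENSMUSG00000052684, chromosome 4 from 95049034 to 95052222) encodes the strongest activator of the 3. It was at 204, 223, 192 and 236 CPM in controls and at 318, 348, 342 and 335 CPM in mutants. Mutant libraries lay closely together and far above the controls. The difference was 0.65 on the log2 scale, with a standard error of 0.0928 (adjusted p = 1.60e-06). The antisense gene *Junos* overlaps *Jun* on the opposite strand and had at most 6 counts in a library.

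*Junb* (ENSMUSG00000052837, chromosome 8 from 84974484 to 84978718) often acts as a restraint on *Jun*. It was at 136, 160.0, 150.0 and 164 CPM in controls and at 164, 202, 204 and 201 CPM in mutants. *Bbs8*-/- replicate 1 lay only just above the highest control and far below the other mutants, which were close to each other. The difference of 0.34 on the log2 scale had a 95% interval from 0.12 to 0.55 (adjusted p = 0.0299). With each library left out the estimate stayed between 0.29 and 0.41, but the call was close to the threshold. It was lost when *Bbs8*+/+ replicate 1 or 3 was left out (adjusted p = 0.0598 and 0.0702) or *Bbs8*-/- replicate 2, 3 or 4 (adjusted p = 0.0867, 0.0900 and 0.0850), and with libraries scaled to RPE marker genes (adjusted p = 0.0556). The last 351 bases of *Junb* also overlap the end of *Prdx2* on the opposite strand, and whether counting used strand is not given in the sources used here. *Prdx2* had between 501 and 648 counts in controls and between 558 and 611 in mutants.

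*Jund* (ENSMUSG00000071076, chromosome 8 from 70698949 to 70700616) is the Jun gene with the most constant expression in most tissues. It was at 152, 134, 143 and 140.1 CPM in controls and at 142, 165, 184 and 157 CPM in mutants. *Bbs8*-/- replicate 1 lay within the controls. Its log2 fold change of 0.19 had a 95% interval from -0.04 to 0.41 and did not pass the test (adjusted p = 0.322).

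*Egr1* (ENSMUSG00000038418, chromosome 18 from 34859823 to 34864984), a zinc finger factor induced through SRF and its partners, was at 263, 273, 320.5 and 292 CPM in controls and at 450.0, 434, 440.4 and 400.1 CPM in mutants. The lowest mutant was clearly above the highest control. The difference was 0.59 on the log2 scale, with a 95% interval from 0.41 to 0.76 (adjusted p = 3.47e-06). The other genes of this family had few counts. *Egr2* and *Egr3* had at most 19 counts in a library and *Egr4* had none.

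*Atf3* (ENSMUSG00000026628, chromosome 1 from 191170296 to 191218039), a stress-induced factor that pairs with Jun proteins, was at 29.5, 31.7, 22.5 and 43.5 CPM in controls and at 43.1, 40.8, 40.4 and 42.6 CPM in mutants. Mutants were nearly identical, while *Bbs8*+/+ replicate 4 was as high as the highest of them. Its estimate of 0.39 on the log2 scale had a 95% interval from -0.02 to 0.80 and did not pass the test (adjusted p = 0.244).

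*Ier2* (ENSMUSG00000053560, chromosome 8 from 84661331 to 84662852), a small nuclear protein induced by growth factors, was at 12.9, 24.2, 34.3 and 20.1 CPM in controls and at 12.7, 17.9, 18.8 and 20.3 CPM in mutants. Mutants lay inside the range of the controls apart from replicate 1, which was at its lower end. *Ier2* was the single gene of the 10 with a negative estimate, a log2 fold change of -0.38 with a 95% interval from -0.95 to 0.19 (adjusted p = 0.457). The estimate was -0.13 with *Bbs8*+/+ replicate 3 left out and -0.58 with *Bbs8*+/+ replicate 1 left out, and passed the test in neither fit.

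*Dusp1* (ENSMUSG00000024190, chromosome 17 from 26505590 to 26562128) encodes a phosphatase that switches off MAP kinases and is induced together with *Fos* in many cells. It was at 47.4, 51.8, 56.8 and 43.5 CPM in controls and at 55.8, 55.9, 59.6 and 56.6 CPM in mutants. *Bbs8*+/+ replicate 3 reached the mutants. An estimate of 0.19 on the log2 scale had a 95% interval from -0.13 to 0.52 (adjusted p = 0.530), and the upper bound lies below the lower bound of *Fos*. Its locus overlaps 640 bases of *Ergic1* on the opposite strand, which had 110 to 171 counts in a library.

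**Figure D2:**
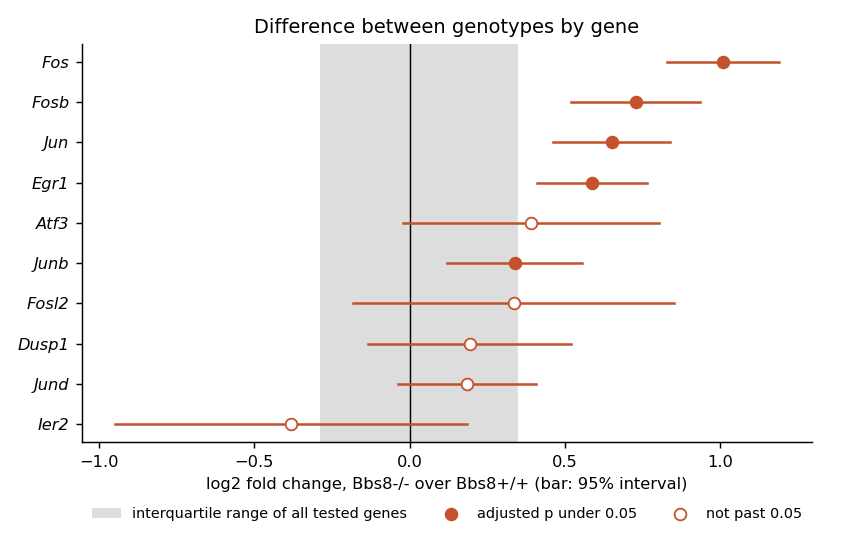
Log2 fold change of *Bbs8*-/- over *Bbs8*+/+ RPE for the 10 genes, in order of size, with 95% intervals. Filled points passed an adjusted p of 0.05 and the grey band is the interquartile range of all tested genes, from -0.29 to 0.35. *Fos*, *Fosb*, *Jun* and *Egr1* lie with their whole interval above the band.

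The spread between libraries of a genotype differed between genes. The SD as a percentage of the mean CPM was 9.57% in controls and 6.82% in mutants for *Fos*. For *Ier2* it was 39.2% and 18.8%, and for *Atf3* 27.5% and 3.17%. The biological coefficient of variation is edgeR's estimate of this spread beyond counting error. It is drawn toward the trend over all genes at the same level, so closeness to that trend is partly built in. This estimate was 9.72% to 10.9% for *Fos*, *Fosb*, *Jun*, *Junb*, *Jund* and *Egr1*, where the trend was 10.4% to 11.6%. It was 24.4% for *Ier2*, 22.1% for *Fosl2* and 17.8% for *Atf3*, where the trend was 23.4%, 22.3% and 18.2%. After the mean of each genotype was removed, the 10 genes did not vary together over the 8 libraries. Of their 45 pairs 22 had a Pearson r above 0, with a median of 0.00, a lowest value of -0.89 for *Atf3* with *Dusp1* and a highest of 0.84 for *Jun* with *Atf3*. These values describe 8 libraries and carry no test.

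The make-up of the AP-1 transcripts was compared within each library, where scaling plays no part. The count of *Fos* was 1.75 ± 0.231 times that of *Jund* in controls and 3.12 ± 0.499 times in mutants (SD, n = 4). Relative to *Junb*, *Fos* went from 1.63 ± 0.142 to 2.63 ± 0.478. The ratio of *Jun* to *Jund* was 1.51 ± 0.191 in controls and 2.08 ± 0.157 in mutants. Mutant and control libraries did not overlap in these 3 ratios, nor in those of *Fos* to *Fosb*, *Fosb* to *Jund* and *Jun* to *Junb*. The ratio of *Fos* to *Jun* was 1.17 ± 0.180 and 1.49 ± 0.156, and here *Bbs8*+/+ replicate 3 reached the mutants (two-sided exact permutation test on log2 ratios, p = 0.0857, adjusted 0.143). For the 6 ratios without overlap the exact p was 0.0286, the smallest that 4 libraries against 4 can give, and 0.0714 after adjustment over the 15 pairs of the 6 subunits, so no pair passed 0.05.

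**Figure D3:**
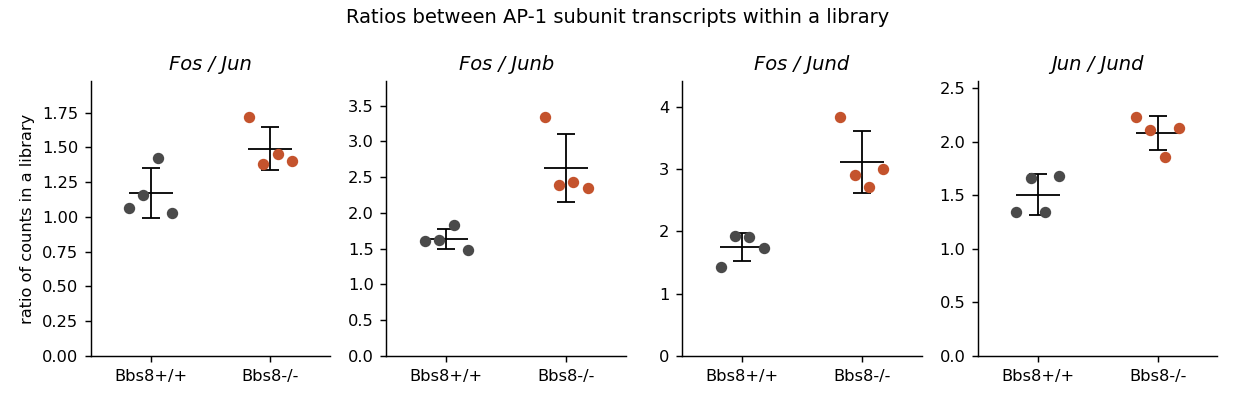
Ratio of the counts of 2 AP-1 subunit transcripts within each library, with *Bbs8*+/+ in grey and *Bbs8*-/- in orange, the mean as a black mark and the SD of 4 libraries as bars. *Fos* to *Junb*, *Fos* to *Jund* and *Jun* to *Jund* do not overlap between genotypes, while *Fos* to *Jun* does.

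Most other leucine zipper factors that can join AP-1 or bind related sites did not pass the test. Most tested genes did not either, with 12.3% of all of them passing. *Fosl1* and *Batf2* had no count in any library, which allows at most 1.26 CPM in the shallowest one, and *Batf* and *Batf3* had at most 5 counts. Of 14 such genes 10 were tested, 1 rose, 1 fell and 8 did not pass, with a median log2 fold change of 0.21. *Maf*, a factor of the large Maf group, rose from 151 ± 20.6 to 217 ± 11.9 CPM (log2 fold change 0.52, adjusted p = 4.96e-04). *Atf4*, the main factor of the integrated stress response, fell from 313 ± 35.1 to 256 ± 16.7 CPM (log2 fold change -0.29, adjusted p = 0.0380). This call was lost under 9 of 17 alternatives, among them leaving out *Bbs8*+/+ replicate 1, 2 or 4 or *Bbs8*-/- replicate 2, 3 or 4 (adjusted p = 0.0534 to 0.147).

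Of 44 other immediate early genes 39 were tested, 10 rose, 1 fell and 28 did not pass the test, with a median log2 fold change of 0.40. Among all tested genes 5.46% rose and 6.80% fell. The list, like the 10 members, was chosen with earlier results of these data known. *Cebpd*, a factor of the acute phase response, was at 31.5, 32.4, 60.9 and 49.1 CPM in controls and at 131, 107, 109 and 123 CPM in mutants. The difference was 1.44 on the log2 scale (adjusted p = 1.83e-08). *Socs3*, an inhibitor of cytokine signalling, rose from 52.6 ± 13.7 to 131 ± 15.3 CPM (1.32 on the log2 scale, adjusted p = 2.71e-08). For both, every mutant library lay above every control.

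*Klf6*, a zinc finger factor, rose from 48.3 ± 7.88 to 114 ± 6.80 CPM (log2 fold change 1.23, adjusted p = 2.31e-08). *Nfkbiz*, a nuclear regulator of NF-kappaB, changed by 0.99 (adjusted p = 0.00434). Further genes that rose, named after their values were seen, were *Gadd45g* (0.95), the nuclear receptor *Nr4a1* (0.88), *Ccn2* (0.80), the RNA-binding *Zfp36l1* (0.48), *Ccn1* (0.45) and *Sgk1* (0.28), with the log2 fold change of each in parentheses. *Ccn2* was at 51.1 CPM in *Bbs8*+/+ replicate 1 and at 146 to 234 CPM in the other controls, its log2 fold change was 0.51 without that library, and DESeq2 did not call it (adjusted p = 0.216). *Ccn1* lost its call without *Bbs8*+/+ replicate 4 or *Bbs8*-/- replicate 1 (adjusted p = 0.0925 and 0.106), and *Sgk1* without *Bbs8*-/- replicate 3 or 4 (adjusted p = 0.0813 to 0.116). *Tnfaip3*, an inhibitor of NF-kappaB, was the gene that fell, from 34.3 ± 7.69 to 16.1 ± 6.37 CPM (log2 fold change -1.10, adjusted p = 0.00342). *Myc*, *Arc* and *Npas4*, immediate early genes of proliferating cells and neurons, had too few counts to be tested.

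**Figure D4:**
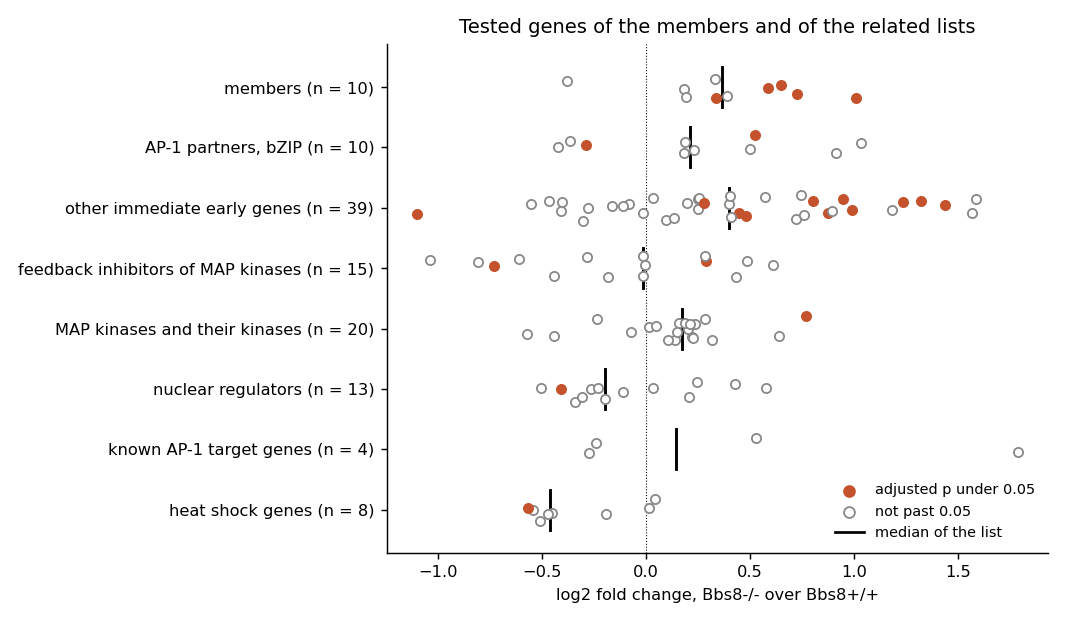
Log2 fold change of *Bbs8*-/- over *Bbs8*+/+ RPE for each tested gene of the 10 members and of 7 related lists. Filled points passed an adjusted p of 0.05 and black bars mark the median of a list. The medians of the members and of other immediate early genes are 0.36 and 0.40, and that of the heat shock genes is -0.46.

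Upstream of these genes few transcripts passed the test, as among all tested genes, of which 5.46% rose and 6.80% fell. Of 20 MAP kinases and kinases of their cascades, all tested, 16 had positive and 4 negative estimates. Their median log2 fold change was 0.17, and only *Map2k1* passed the test. This kinase of the ERK pathway rose from 34.9 ± 8.43 to 59.3 ± 11.2 CPM (log2 fold change 0.77, adjusted p = 0.00505). *Mapk3*, a kinase of the same pathway, differed by -0.07 on the log2 scale (adjusted p = 0.832), and *Mapk8*, a kinase of Jun, by 0.22 (adjusted p = 0.410), and neither passed the test. Of 13 nuclear regulators 5 had positive and 8 negative estimates, with a median log2 fold change of -0.20. *Creb1* fell, from 107 ± 12.9 to 80.3 ± 13.2 CPM (log2 fold change -0.41, adjusted p = 0.0485), though libraries of the genotypes overlapped. This call was lost under 8 of 17 alternatives, among them leaving out *Bbs8*+/+ replicate 2, 3 or 4 or *Bbs8*-/- replicate 1, 3 or 4 (adjusted p = 0.0819 to 0.176). *Srf* had a log2 fold change of 0.43 that did not pass (adjusted p = 0.216). Phosphorylation, by which these proteins act, was not measured.

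Of 16 feedback inhibitors of MAP kinases 15 were tested, 1 rose and 1 fell, against 5.46% and 6.80% of all tested genes. *Dusp6*, a phosphatase of ERK that is transcribed in response to it, went from 261 ± 25.7 to 319 ± 21.3 CPM (log2 fold change 0.29, adjusted p = 0.0360), and the genotypes just overlapped. This call was lost under 8 of 17 alternatives, among them leaving out *Bbs8*+/+ replicate 1, 2 or 3 or *Bbs8*-/- replicate 2, 3 or 4 (adjusted p = 0.0561 to 0.106) and scaling to RPE marker genes (adjusted p = 0.0724). *Dusp7*, a related phosphatase, fell from 72.8 ± 7.89 to 43.9 ± 15.4 CPM (log2 fold change -0.73, adjusted p = 0.00494). Its *Bbs8*-/- replicate 3, at 65.6 CPM, lay above the lowest control at 64.6 CPM. The median of this list was -0.02.

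Of 13 genes known as targets of AP-1, among them matrix metalloproteinases and *Timp1*, only 4 had enough counts to be tested and 0 passed edgeR's quasi-likelihood test, with 0 at an unadjusted p under 0.05 and 0 by DESeq2. The 2 with the smallest p were *Ccl2* (log2 fold change 1.79, adjusted p = 0.330) and *Hmox1* (0.53, adjusted p = 0.561). These genes averaged at most 8.38 CPM in either genotype, and the 95% interval of *Ccl2* ran from -0.38 to 3.96.

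Heat shock genes are known to be induced with immediate early genes when tissue is dissociated. Of 8 tested, 0 rose with edgeR's quasi-likelihood test, also at an unadjusted p under 0.05 and with DESeq2. *Hsp90aa1* fell, and 4 of the 8 were lower at an unadjusted p under 0.05 in the quasi-likelihood test. Of all tested genes, 5.46% rose and 6.80% fell at an adjusted p under 0.05. Of the 8 estimates 6 were negative, and the median log2 fold change was -0.46. The part of dissociation in these values was not tested. *Hsp90aa1*, a cytosolic chaperone, was at 1975, 1609, 1542 and 1785 CPM in controls and at 1220, 1161, 1107 and 1172 CPM in mutants. The difference was -0.57 on the log2 scale (adjusted p = 6.98e-08), and all mutants lay below all controls. *Dnajb1* and *Hspa1a*, both strongly inducible, had log2 fold changes of -0.47 and -0.45 that did not pass (adjusted p = 0.0785 and 0.165), and *Hspa1a* is uncertain because it shares nearly all of its sequence with *Hspa1b*. *Hspa1b* itself was at -0.19, *Hspa8* at 0.05 and *Hspe1* at 0.02, and none of these passed.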

How the data were processed

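RNA of isolated P29 RPE was sequenced in 8 QuantSeq libraries, which read the 3′ end of polyadenylated transcripts. The authors trimmed the reads with BBDuk, aligned them with STAR to mm10 with Ensembl gene models, ran htseq-count on reads with 1 alignment and deposited unfiltered raw counts for each library. Per library, 2389835 to 3093428 counts fell on genes, 17.0% to 20.6% of reads on no feature and 32.8% to 34.5% did not map uniquely. These lines were left out. A gene at 3 counts, the floor, is at 0.970 to 1.26 CPM, which covers counting error only.

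Symbols and coordinates are those of GENCODE M21 on GRCm38, the same build as mm10, which named 30934 of 31053 identifiers. *Ddit3* has 2 identifiers, and the one with counts was used. The filter kept genes reaching 1 CPM in 4 or more libraries, since the study's own filter needs the alignments. Counts were fitted in R 4.3.3 with edgeR 4.0.16 (TMM, trended dispersions, quasi-likelihood F test, two-sided) and adjusted over all tested genes by Benjamini-Hochberg, with a threshold of 0.05. Standard errors are the log2 estimate over the root of its F value. The test was checked on simulated counts. Ratios and summed markers were compared with exact permutation tests.

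The members, gene lists and tests were chosen with earlier results of these data known. Named by rule were the 10 members, *Ttc8*, of each list up to 4 genes with the largest rise and up to 4 with the largest fall among those past the threshold or else the 2 with the smallest p, and the 6 genes most like the members. Pairs of subunits and promoter motifs were chosen after the values were seen. Alternatives were scaling by library size, TMM without photoreceptor, lens and erythrocyte genes, DESeq2 1.42.0, edgeR's likelihood ratio test, robust empirical Bayes, no filter, filterByExpr, the replicate number as a block, each library left out and, chosen after seeing the data, scaling to RPE marker genes. Each was fitted over all genes.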

Additional observations from a re-analysis of the deposited data

Results flagged for a closer look

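Of 31 named genes, each looked at in both genotypes, 5 of 62 groups of 4 libraries held 1 library far from the other 3 (gap over range above 0.829), and chance flags about 1 in 20 such groups. *Junb* was at 164 CPM in *Bbs8*-/- replicate 1 and at 201 to 204 CPM in the other mutants. *Atf4* was at 231 CPM in *Bbs8*-/- replicate 2 against 261 to 266 CPM. *Klf6* was at 36.6 CPM in *Bbs8*+/+ replicate 2 against 51.5 to 53.5 CPM. *Map2k1* was at 22.3 CPM in *Bbs8*+/+ replicate 1 against 37.7 to 40.5 CPM. *Ccl2* was at 1.35 CPM in the same library against 0.372 to 0.409 CPM, all close to the floor of 3 counts.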

How the results depend on the processing

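*Fos*, *Fosb*, *Jun* and *Egr1* kept their call and direction in all 17 alternatives, with log2 fold changes of 0.95 to 1.10, 0.67 to 0.82, 0.60 to 0.74 and 0.55 to 0.67. *Junb* was 0.31 and past no threshold with scaling to RPE marker genes, and 0.29 to 0.41 with each library left out, where it lost its call in 5 of 8 fits. No gene of the lists reversed a call, and 17 of the 24 genes called kept it everywhere. *Ccn2* lost its call with DESeq2 (adjusted p = 0.216) and robust empirical Bayes (adjusted p = 0.316). Scaling by library size gave 2 higher and 0 lower AP-1 partners, 2 higher MAP kinases and 0 lower nuclear regulators, and 60.5% of all called genes were higher in place of 44.5%. The likelihood ratio test gave 0 lower AP-1 partners and 0 higher feedback inhibitors, filterByExpr 0 lower nuclear regulators, and scaling to RPE marker genes 0 higher feedback inhibitors. With each library left out, counts ranged from 1 to 2 for higher and 0 to 1 for lower AP-1 partners, 1 to 2 for lower immediate early genes, 0 to 1 for higher feedback inhibitors, 1 to 2 for higher MAP kinases, 0 to 1 for lower nuclear regulators and 1 to 2 for lower heat shock genes. The cause of these moves was not tested. With the replicate number as a block, AP-1 partners lower in mutants were 0 and no other count in these lists moved by over 1.5 times. The numbers pair no samples, since deviations of same-numbered libraries correlated between -0.06 and 0.01, and all called genes went from 704 higher and 877 lower to 650 and 827. Marker levels kept their direction in all 9 settings. Low counts left 9 of 13 targets of AP-1 untested.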

Other observations

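The 6 genes whose deviations from their genotype mean were most like the mean standardised profile of the 10 members over the 8 libraries were *Abcg4*, *Adra2c*, *Tbpl1*, *Yif1b*, *Snx18* and *Sel1l*, with Pearson r from 0.96 to 0.98. They are the highest of 8418 genes averaging 10 CPM or more, the members themselves did not vary together, and only *Abcg4* passed the test between genotypes (log2 fold change -0.81, adjusted p = 0.0116).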
